A study of Homo sapiens with 2 samples.

Results

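The Krüppel-like factors (KLF) are zinc finger transcription factors, and 10 of their genes are described here: KLF3, KLF4, KLF5, KLF6, KLF7, KLF9, KLF10, KLF11, KLF12 and KLF13. They were chosen by name, and every probe set annotated to exactly one of these symbols was taken, which gave 38 probe sets of the 54675 on the array. HCT116, an established line of human colon cancer cells, gave the RNA, which was hybridized to 2 expression arrays, 1 for cells given a control siRNA and 1 for cells given siRNAs against JMJD1A and JMJD1B (the siJMJD1A/siJMJD1B array). Both cultures were grown in DMEM with serum and harvested 2 days after transfection, and the siRNA sequences are not given in the sources used here. JMJD1A and JMJD1B, now named KDM3A and KDM3B, remove methyl groups from H3K9. With 1 array a group there is no replicate error and no test, so every difference below is one between these arrays and not an estimate for the conditions. In RNA from a whole culture, a higher level in every cell and a larger share of cells with a high level cannot be told apart.

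KLF proteins bind GC-rich and CACCC elements through a set of C-terminal zinc fingers that differs little across the family, while their N-terminal parts recruit different partners. KLF4, KLF5, KLF6 and KLF7 fall in the subgroup known for binding histone acetyltransferases, KLF3 and KLF12 in the subgroup that binds the corepressor CtBP, and KLF9, KLF10, KLF11 and KLF13 in the subgroup that binds the corepressor SIN3. In the gut lining KLF4 is known from differentiated, non-dividing surface cells and KLF5 from the proliferating crypt.

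The promoters of KLF4 and KLF6, which had the highest ratios below, and of KLF5 and KLF13, which had the lowest, are shown first, because the family binds GC-rich and CACCC elements. The RefSeq promoter table (GRCh38.p14), which runs from 250 bases before to 50 bases after each start, held 16 windows for 8 of the 10 members, the others being KLF3 and KLF10. The 250 bases before the start are printed 5′ to 3′ on the strand of the gene, for KLF4 (chr9:107489770-107490019, minus strand), KLF6 (chr10:3785210-3785459, minus strand), the first of 2 KLF5 windows (chr13:73054726-73054975, plus strand) and KLF13 (chr15:31326585-31326834, plus strand). Capitals mark the GC box GGGCGG, the CACCC box CCACCC and the hypoxia response core ACGTG, each on either strand, with overlapping matches run together.
KLF4: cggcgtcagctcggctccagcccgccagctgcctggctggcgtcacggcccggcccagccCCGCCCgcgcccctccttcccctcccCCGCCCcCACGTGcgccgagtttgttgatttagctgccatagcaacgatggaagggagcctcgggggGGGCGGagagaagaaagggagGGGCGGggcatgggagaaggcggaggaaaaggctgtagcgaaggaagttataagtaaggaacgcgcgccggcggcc
KLF6: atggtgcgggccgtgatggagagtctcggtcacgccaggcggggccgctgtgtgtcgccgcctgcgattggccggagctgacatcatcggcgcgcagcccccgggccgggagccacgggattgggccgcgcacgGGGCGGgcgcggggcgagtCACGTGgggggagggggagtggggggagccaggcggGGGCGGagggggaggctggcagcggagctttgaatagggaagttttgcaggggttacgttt
KLF5: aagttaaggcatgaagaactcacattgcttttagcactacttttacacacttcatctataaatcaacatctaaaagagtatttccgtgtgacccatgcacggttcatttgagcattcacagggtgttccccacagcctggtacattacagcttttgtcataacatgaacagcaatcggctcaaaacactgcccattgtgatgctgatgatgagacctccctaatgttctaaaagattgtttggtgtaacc
KLF13: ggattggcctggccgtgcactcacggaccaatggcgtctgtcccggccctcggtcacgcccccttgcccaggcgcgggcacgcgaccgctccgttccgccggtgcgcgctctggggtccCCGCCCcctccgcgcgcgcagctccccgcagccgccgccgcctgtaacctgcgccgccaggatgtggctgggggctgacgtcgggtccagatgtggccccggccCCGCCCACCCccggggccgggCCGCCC
In these stretches KLF4 holds 4 GC boxes, KLF6 holds 2, and KLF13 holds 3 GC boxes and 1 CACCC box, with 1 of the GC boxes overlapping the CACCC box. The capitals CACGTG in KLF4 and KLF6 are 1 place that reads ACGTG on both strands, and 1 KLF11 window and 1 KLF7 window, not printed, have such a place as well. No ACGTG lies in the KLF13 window. The KLF5 stretch holds none of the motifs in capitals, while the second KLF5 window has 2 GC boxes and, after the start, 1 ACGTG. Over the whole windows, 7 of the 16 member windows held ACGTG, and so did 21.4% of the 35116 promoters in the table. By gene it was 5 of 8, beside 24.9% of the 27305 genes with a promoter there. A GC box was in 8 member windows and in 45.0% of all promoters, and a CACCC box in 4 and in 34.3%. The looser CArG-like pattern, CC and GG with any 6 bases between them, which can overlap a GC box, was in 12 and in 78.2%, and the AP-1 pattern TGANTCA in 1 and in 7.71%. Several windows belong to 1 gene, and a match of letters does not show that a factor binds there.

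The targeted genes were read before the family. KDM3B had signals of 3031 (control) and 496 (siJMJD1A/siJMJD1B), while KDM3A stood at 3884 and 3323, a log2 ratio of only -0.22, which would be -0.84 with the arrays level on their hybridization controls. The label is thus matched by a lower KDM3B signal, and on the deposited scale KDM3A differed by less than the probe-set scatter given below. The log2 ratio is always the siJMJD1A/siJMJD1B array minus the control array. Median signals over all probe sets were 52.2 and 55.4. A probe set is called measured here if its mean log2 signal over both arrays reached the median of the non-control probe sets, a signal of 50.4, and each gene is given by its brightest probe set unless others are named. As the only scatter available, log2 ratios of probe sets for one gene varied with an SD of 0.54 per probe set, over 6192 genes, which is not the spread between cultures. All 18 hybridization controls, bacterial and phage transcripts added to the sample, had a log2 ratio above 0, with a median of 0.61; levelling the arrays on them would lower each ratio by that amount, so a ratio between 0 and 0.61 turns negative there. All 8 epithelial markers were measured, with a summed signal of 80269 and 125348. Markers of other cells were mostly under the filter, with 2 of 8 measured for fibroblasts (summed signal 537 and 876), 3 of 8 for leukocytes (255 and 292) and 1 of 6 for endothelium (161 and 256). The leukocyte antigen PTPRC read 8.22 and 12.4, and no marker with a probe set was listed at 0. The part of these markers in the KLF ratios was not tested.

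All 10 KLF genes had at least 1 measured probe set. KLF4, KLF6 and KLF11 read at least 2-fold higher on the siJMJD1A/siJMJD1B array, KLF13 read at least 2-fold lower, and the other 6 lay between log2 ratios of -0.50 and 0.52. Of all 12561 measured genes 8.91% were higher by 2-fold or more, to be set beside the 3 in 10, and 8.53% were lower by as much, to be set beside the 1 in 10, so the lower count is near that of genes in general. At 1.5-fold the members past the line were the same 3 and the same 1, although 21.7% and 19.5% of measured genes passed it. The median log2 ratio of the 10 genes was 0.40, beside 0.04 for all measured genes. With the arrays level on the hybridization controls the median of the 10 turned to -0.21.

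Probe set by probe set, 28 of the 38 were measured, and 11 of these read 2-fold or more above the control array, beside 8.88% of all 23360 measured probe sets. Another 2 read 2-fold or more below it, beside 10.4%. The dimmer of these 2, at 120 and 24.2, passed the filter only through the control array, where it is high. With a mean signal of at least 100 the lower count was 1 of 22, beside 10.4% of all. The 11 belong to 5 genes and the 2 others belong to KLF13 alone, so they are not separate observations. Of the 28, 20 had a ratio above 0 and 8 below. Among the 20, a KLF6 probe set (46.4 and 88.3) and a KLF9 one (41.8 and 70.2) passed the filter only through the siJMJD1A/siJMJD1B array. The median of the 28 was 0.73, beside -0.005 for all measured probe sets. Ratios between 0 and 0.61 turn negative on the scale of the hybridization controls, so the 20 holds for the deposited scale. Signals of the 10 others ran from 3.77 to 62.0, and in 9 of them both arrays lay under the filter. Of the 10 genes, 5 had every measured probe set above 0, 3 had every one below 0, and KLF7 and KLF12 had both.

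**Figure D1:**
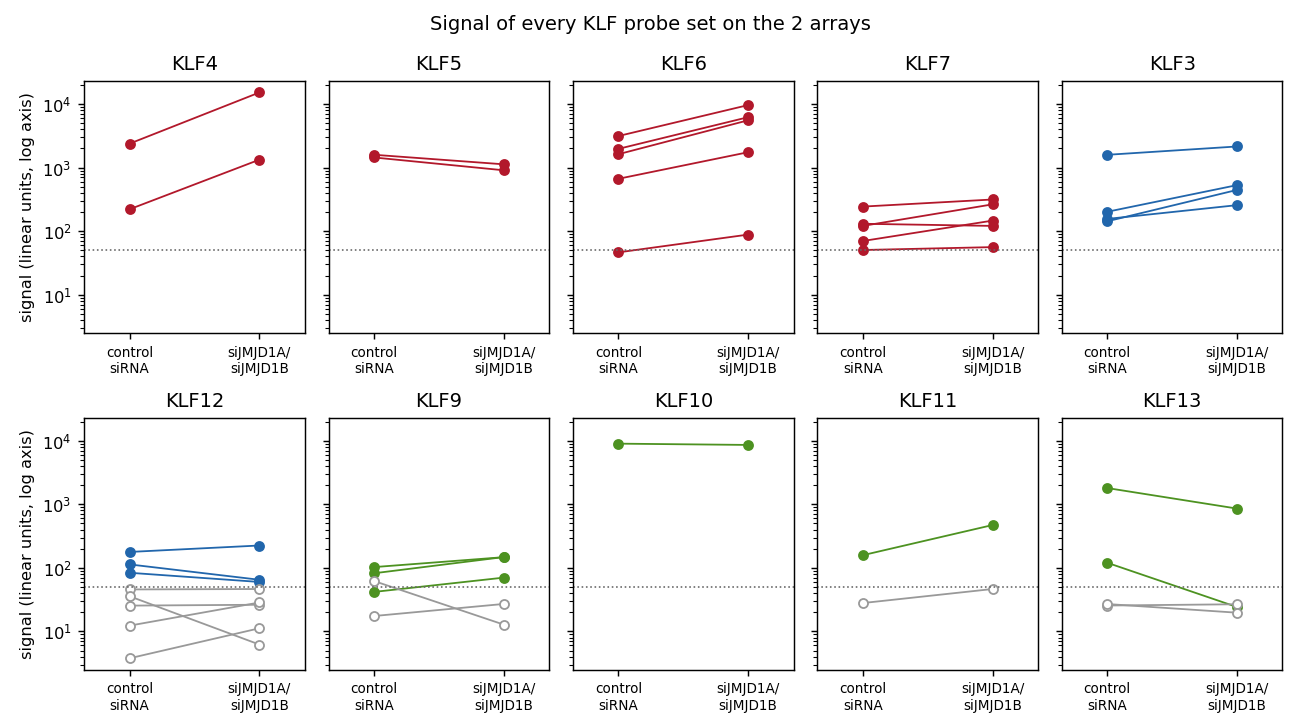
Signal of each of the 38 KLF probe sets (linear units on a log axis) on the control siRNA array and the siJMJD1A/siJMJD1B array, 1 line per probe set and 1 panel per gene; filled coloured points are measured probe sets, open grey points are not, and the dotted line is the filter at a signal of 50.4. Both KLF4 lines and all 5 KLF6 lines climb, both KLF5 lines and both measured KLF13 lines descend, and the KLF10 line is nearly level.

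Among the members that bind acetyltransferases, KLF4 had the highest ratio of the family. Its brighter probe set read 2385 on the control array and 15219 on the other, 6.38-fold higher, with a log2 ratio of 2.67. The second KLF4 probe set, at signals of 221 and 1333, was 6.02-fold higher, with a log2 ratio of 2.59. These probe sets differ by 0.08 on the log2 scale, well inside the probe-set SD, and 88.4% of the 3412 genes with 2 measured probe sets had a gap at least as wide. KLF4 stood at place 26 of 12561 genes ordered from the highest ratio, so that 0.199% had a higher one. Both of its probe sets end in _s_at, a suffix the maker gives to probe sets that can match several transcripts.

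KLF6, a broadly expressed factor known to be induced by injury and to restrain growth, was higher in all 5 of its measured probe sets. The brightest read 3142 on the control array and 9647 on the siJMJD1A/siJMJD1B array, a 3.07-fold difference. The next read 1974 and 6223 (3.15-fold), and the one after that 1626 and 5561 (3.42-fold). The dimmer ones read 667 and 1748 (2.62-fold) and, with the control signal under the filter, 46.4 and 88.3, which is at least 1.75-fold higher against the filter. That last probe set passed the filter only through the siJMJD1A/siJMJD1B array, where it is high, so the KLF6 sign rests on the brighter ones. Their log2 ratios ran from 1.39 to 1.77. With the dimmest, at 0.93, the range was as wide or wider in 72.5% of the 269 genes with 5 measured probe sets. By its brightest probe set, 2.13% of all measured genes had a higher ratio than KLF6.

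KLF5 went the other way by a small amount. Its probe sets read 1593 and 1127, a log2 ratio of -0.50, and 1444 and 908, one of -0.67. The first lies inside the probe-set SD of 0.54 and the second just beyond it, and both agree in sign. On the scale of the hybridization controls they would stand at -1.11 and -1.28. KLF5 and KLF4, the 2 members best known from the intestinal epithelium, thus had ratios of opposite sign on each scale tried.

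KLF7, known for its part in neuronal development, had probe sets that did not agree. The brightest read 244 and 315 (log2 ratio 0.37). Another read 121 and 264, and a dimmer one 70.0 and 147, at 1.13 and 1.07, just past the 2-fold line. The remaining KLF7 probe sets were level, with signals of 131 and 121 (-0.11) and of 50.5 and 56.1 (0.15). Such a range of 1.24 is ordinary for a gene with 5 measured probe sets, since 48.3% of them had one as wide.

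**Figure D2:**
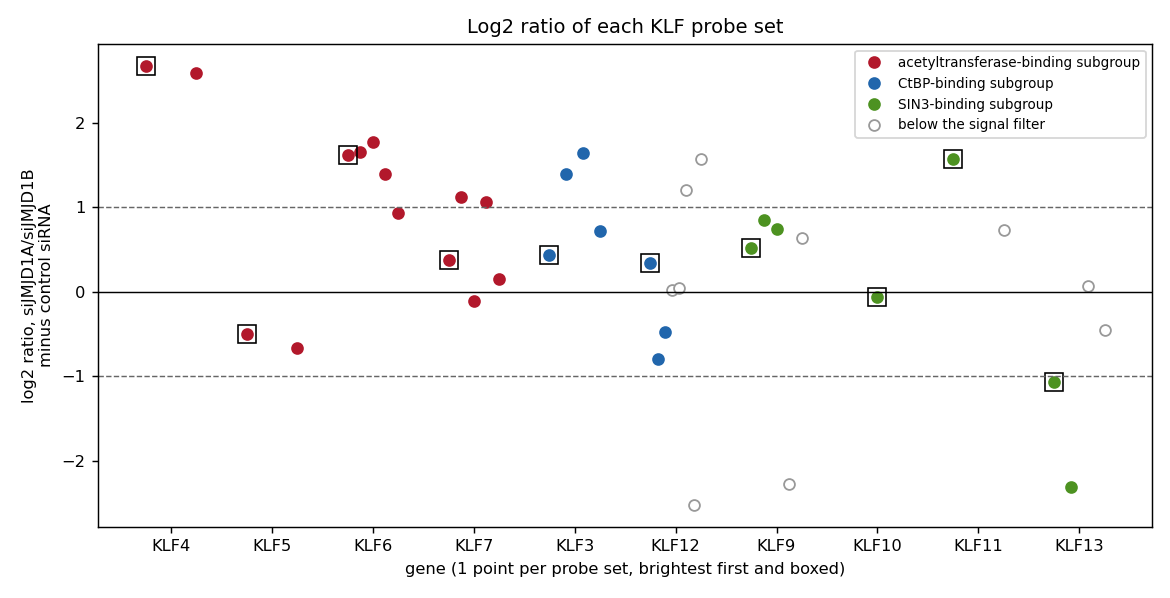
Log2 ratio (siJMJD1A/siJMJD1B minus control siRNA) of each KLF probe set, ordered within a gene from the brightest, which is boxed; colours give the cofactor subgroup, open points lie under the signal filter, and dashed lines mark 2-fold. The measured points of KLF4 (2.59 and 2.67) and of KLF6 (0.93 to 1.77) lie close together. Those of KLF3, KLF7, KLF12 and KLF13 span more than 1 on the log2 scale. The lower filled KLF13 point is drawn at its ratio as read, -2.31. Its signal on the siJMJD1A/siJMJD1B array is under the filter, so its place is uncertain. Against the filter it is at least 2.38-fold lower, which is not drawn. The lowest KLF6 point and the KLF9 point at 0.75 have a control signal under the filter and are likewise uncertain.

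In the pair that binds CtBP, neither gene reached 2-fold by its brightest probe set. KLF3, a repressor best known from red cell and B cell development, read 1591 and 2152 there, a log2 ratio of 0.44. Its dimmer probe sets were further apart between the arrays. They read 202 and 530 (1.39), 143 and 446 (1.64), and 156 and 257 (0.72). All 4 KLF3 ratios were above 0, and their mean of 1.05 passes the 2-fold line that the brightest does not. A range as wide as 1.20 was seen in 34.7% of the 683 genes with 4 measured probe sets.

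KLF12, first described as a repressor of the AP-2alpha gene, had 8 probe sets, of which 3 were measured. They read 178 and 225 (log2 ratio 0.34), 113 and 64.9 (-0.80), and 83.6 and 59.98 (-0.48). The brightest KLF12 probe set is thus opposite in sign to the other measured ones, and the mean of the 3 was -0.32. In the 5 KLF12 probe sets that were not measured no signal passed the filter, so their ratios are not read here. No direction is given for KLF12.

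The 4 members that bind SIN3 held both a gene past 2-fold in each direction and the most level one. KLF11, also called TIEG2 and linked to a form of inherited diabetes, read 158 and 472 by its measured probe set, 2.98-fold higher and a log2 ratio of 1.58, with 2.30% of measured genes above it. The other KLF11 probe set lay under the filter on both arrays, at 27.9 and 46.4. KLF11 therefore rests on 1 probe set, and levelled on the hybridization controls it would stand at 0.97, just short of 2-fold.

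KLF13, known in lymphocytes as a regulator of the chemokine gene CCL5, read 1802 and 857 by its brightest probe set, 2.10-fold lower, with a log2 ratio of -1.07. The other measured KLF13 probe set read 120 and 24.2, at least 2.38-fold lower against the filter. That probe set passed the filter through the control array, where it is high, and drops out at a mean signal of at least 100. KLF13 thus rests mainly on the brightest. As read, the 2 measured KLF13 probe sets differ by 1.24 on the log2 scale. Of the 3412 genes with 2 measured probe sets, 11.5% had a gap at least as wide. The KLF13 gap rests on the signal of 24.2, which is under the filter, so its width is uncertain. Against the filter the folds are 2.10 and at least 2.38. A further pair of KLF13 probe sets stayed under the filter, at 25.5 and 26.7 and at 26.9 and 19.7. The brightest lies close to the line, and after loess removal of the trend with signal it stood at -0.996 and after quantile normalization at -0.97.

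KLF10, the TGF-beta-inducible early gene TIEG1, was nearly level, at signals of 9010 and 8602 and a log2 ratio of -0.07 from its only probe set. On the scale of the hybridization controls it would stand at -0.68. KLF9, a gene induced by glucocorticoid and thyroid hormones, read 103 and 147 (log2 ratio 0.52), 82.2 and 148 (0.85), and 41.8 and 70.2 (0.75, at least 1.39-fold against the filter). One more KLF9 probe set, below the filter on average, went the other way, from 62.0 to 12.8, at least 1.23-fold lower. The dimmest measured KLF9 probe set (41.8 and 70.2) passed the filter only through the siJMJD1A/siJMJD1B array, where it is high. All 3 measured KLF9 probe sets were above 0, but that one adds no separate evidence of the sign. None reached 2-fold, and the brightest would stand at -0.09 on the scale of the hybridization controls.

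**Figure D3:**
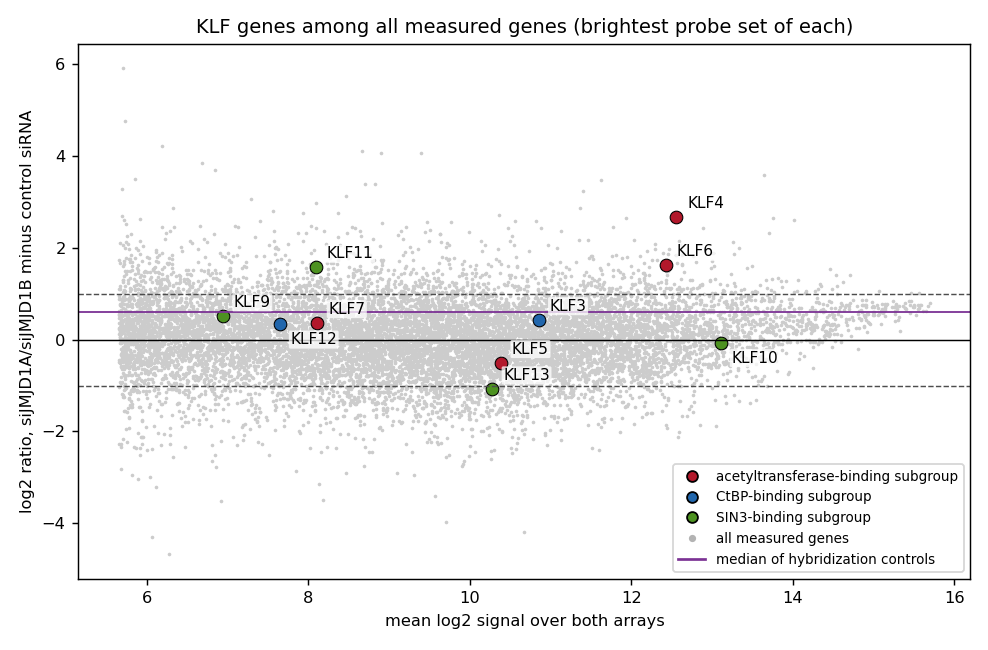
Log2 ratio against mean log2 signal for the brightest probe set of each of the 12561 measured genes (grey) and of the 10 KLF genes (coloured by cofactor subgroup); dashed lines mark 2-fold and the purple line the median of the hybridization controls at 0.61. KLF4, at 2.67, stands near the upper edge of genes of its brightness, and KLF3, KLF7, KLF9 and KLF12 lie between 0 and the purple line.

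In the order of ratios by the brightest probe set, KLF4 (2.67) was followed by KLF6 (1.62) and KLF11 (1.58), which differ by less than the probe-set SD. KLF9, KLF3, KLF7 and KLF12, between 0.52 and 0.34, cannot be ordered against that scatter, and they all turn negative on the scale of the hybridization controls. KLF10 (-0.07), KLF5 (-0.50) and KLF13 (-1.07) formed the low end. By cofactor subgroup, 3 of the 4 acetyltransferase-binding members were above 0 and 1 below on the deposited scale. The SIN3-binding members were 2 above and 2 below. Of the CtBP-binding pair KLF3 was above 0, and no direction is given for KLF12, with probe sets of either sign. The median of all measured genes was 0.04, so ratios above and below 0 were about equally common. With so few genes these counts set no subgroup apart.

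**Figure D4:**
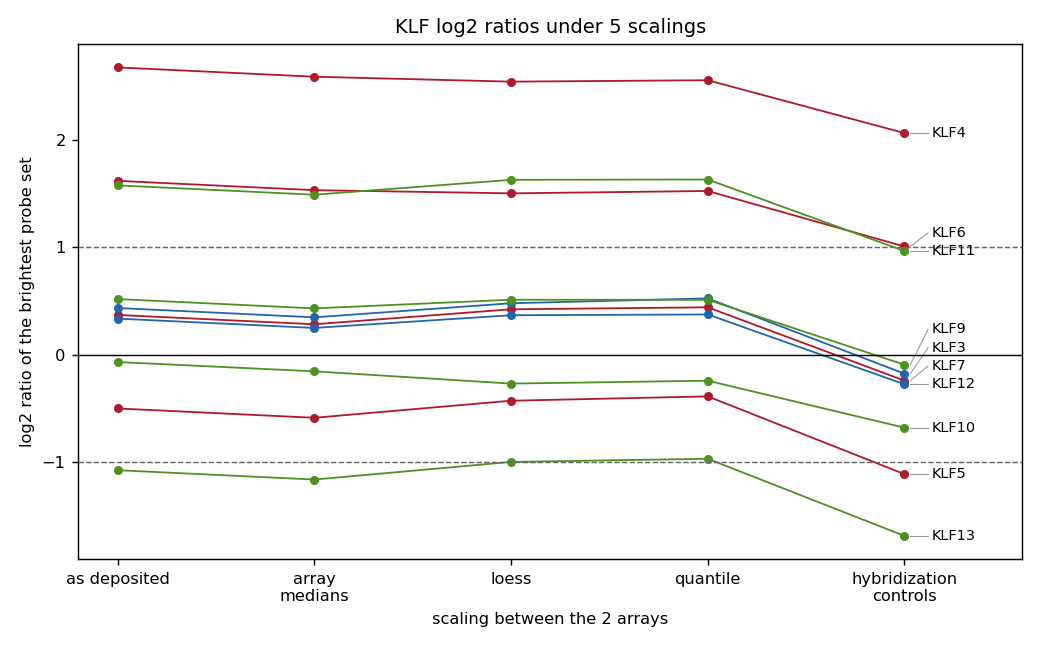
Log2 ratio of the brightest probe set of each KLF gene under 5 ways of scaling the arrays to each other, coloured by cofactor subgroup, with dashed lines at 2-fold. KLF4, KLF6 and KLF11 stay above 0 and KLF5, KLF10 and KLF13 below 0 under all 5, while KLF3, KLF7, KLF9 and KLF12 cross 0 when the arrays are level on the hybridization controls.

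The measured genes among the remaining KLF genes and the SP family, which shares the KLF zinc fingers, showed no 2-fold ratio on the deposited scale. Of all measured genes 8.91% were as high and 8.53% as low, so none among so few is near the general share. Of 7 other KLF genes 3 were measured, between -0.27 and 0.38, with KLF15, a factor of muscle and liver metabolism, the furthest from 0 at signals of 157 and 205. Of 9 SP genes 5 were measured, with a median of 0.00, and SP6, a factor of tooth development, was the furthest at 378 and 252 (log2 ratio -0.58). With the arrays level on the hybridization controls SP1 (-1.10) and SP6 (-1.19) would be past 2-fold lower, as 27.7% of all measured genes would. KLF14, KLF17, KLF1 and KLF8 had no measured probe set, nor did SP5, SP7 and SP8, and SP9 had none with a single symbol. Of these, KLF8 read 16.1 and 74.1, at least 1.47-fold higher against the filter. SP5 read 57.2 and 8.95, at least 1.13-fold lower, so a 2-fold ratio is not read for either.

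Among 12 genes for KLF cofactors the median was -0.15, and 3 passed the 2-fold line, 1 of them upward and 2 downward, beside 8.91% and 8.53% of all measured genes. The count downward was 1 after quantile normalization, beside 7.97% of all genes, and 1 by the mean of probe sets, beside 7.84%. It was also 1 without probe sets ending in _x_at or _s_at, which can match several transcripts, beside 10.6%. With the arrays level on the hybridization controls the downward count was 4, with none upward and a median of -0.76. On that scale 27.7% of all measured genes were as low. The corepressor genes CTBP1, CTBP2, SIN3A and SIN3B were all under 2-fold. The acetyltransferase genes went apart. EP300 had its 2 measured probe sets at log2 ratios of -1.38 and -0.47, CREBBP had them at -1.10 and -1.05, and KAT2B (PCAF) read 152 and 422, 2.77-fold higher by 1 probe set. Each of these calls is lost in at least one setting, with KAT2B at 0.86 on the scale of the hybridization controls, CREBBP at -0.99 after quantile normalization and EP300 at -0.93 by the mean of its probe sets. Of 5 genes for ubiquitin ligases reported to act on KLF proteins none reached 2-fold by its brightest probe set. Over all measured genes 8.91% did so upward and 8.53% downward, so none of 5 is near the general share. The ligase gene furthest from 0 was ITCH, at 856 and 1650 (log2 ratio 0.95), with its 5 measured probe sets spread from -1.26 to 1.22. It passed the line after loess (1.03) and after quantile normalization (1.05), where 8.91% and 9.21% of all measured genes did so upward. Without probe sets ending in _x_at or _s_at, 1 of the 4 ligase genes left passed downward, beside 10.6% of all genes. With so few genes this does not set the ligases apart.

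Of 23 genes reported in other systems as targets of one or another KLF protein, 19 were measured, and their median was 0.75. Of these 7 passed the 2-fold line upward and none downward, beside 8.91% and 8.53% of all measured genes. The upward count was 5 after loess and after quantile normalization, beside 8.91% and 9.21% of all genes. Without probe sets ending in _x_at or _s_at, 3 of 12 passed upward and 1 downward, beside 9.07% and 10.6%. PDGFA, a growth factor gene reported as a KLF5 target, read 878 and 8358, 9.52-fold higher, with its probe sets at 3.25 and 2.61, and KLF5 itself stood at -0.50. SMAD7, the TGF-beta feedback inhibitor that KLF10 and KLF11 are reported to repress, read 234 and 957, with KLF10 level and KLF11 higher. CDKN1A, the p21 gene and a reported KLF4 and KLF6 target, read 2743 and 8281. The epithelial keratin gene KRT19, a reported KLF4 target, read 16309 and 38953. KRT19 fell short of 2-fold after loess (0.86) and after quantile normalization (0.77). On the scale of the hybridization controls CDKN1A (0.98) and KRT19 (0.65) would both fall short. With the arrays level on the hybridization controls, 2 of the 19 would pass the line upward and 3 downward, around a median of 0.14, where 2.15% and 27.7% of all measured genes would. Binding of any KLF protein was not measured, and the part of the KLF genes in these ratios was not tested.

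**Figure D5:**
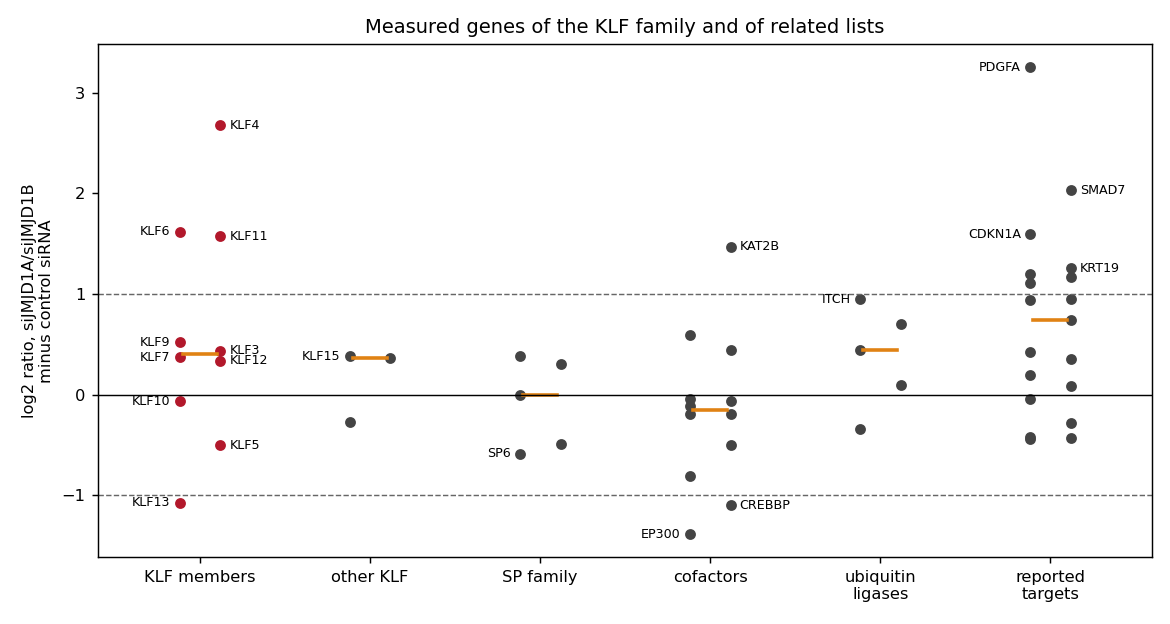
Log2 ratio (siJMJD1A/siJMJD1B minus control siRNA) of each measured gene among the 10 KLF members, 3 other KLF genes, 5 SP genes, 12 cofactor genes, 5 ubiquitin ligase genes and 19 reported targets, with an orange bar at each list's median and dashed lines at 2-fold. Ratios of the KLF members run from -1.07 to 2.67. Those of the other measured KLF and SP genes, which are few, run from -0.58 to 0.38.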

How the data were processed

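Total RNA of HCT116 cells was measured on 2 single-channel arrays, 1 for each group. The authors deposited a linear signal intensity for each probe set. Per the submitters' processing notes it comes from MAS5, whose version and settings are not given in the sources used here. After trimming 2% from either end, the deposited intensities of both arrays averaged 500.1, which shows a scaling of whole arrays. Both columns were matched to samples.

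Gene names came from the platform's annotation: 41091 probe sets had 1 gene symbol, 1801 several and 11721 none. The symbols of 41037 were matched to RefSeq. Values were log2-transformed without a pseudocount. The filter and the choice of the brightest probe set are as the results state. A signal under the filter was raised to it for folds given as "at least". The SD between probe sets came from the 2 brightest measured probe sets of each gene. With 1 array a group, no test was made; precision is limited by the number of arrays. The members, lists, rules and alternatives were chosen with earlier results of these data known. Besides the members and the targeted genes, each list names up to 4 genes with the largest ratio past 2-fold, or the 1 furthest from 0 where none passed; counts may be named in full. Motifs were searched on both strands of the RefSeq promoter windows. The gene step was tested on simulated data. Alternatives were 4 scalings, a pseudocount of 16, 3 filters, 2 probe set rules and folds of 1.5 and 3. Python 3.11.15, numpy 2.4.6, pandas 2.3.3, statsmodels 0.14.6 (loess) and matplotlib 3.10.9 were used.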

Additional observations from a re-analysis of the deposited data

How the results depend on the processing

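No paired analysis was possible because each group had 1 array, and no replicate could be left out. A KLF gene or median counted as moved when it shifted by more than the probe-set SD of 0.54, and a count when it moved by over 1.5 times. With the arrays level on the hybridization controls, 2 KLF genes (KLF5 and KLF13) in place of 1 were at least 2-fold lower, 6 probe sets in place of 11 were at least 2-fold higher and 6 in place of 2 at least 2-fold lower, and the median log2 ratio was -0.21. The share of all measured genes at least 2-fold lower was 27.7% on that scale, and 2.15% were at least 2-fold higher. Of all measured probe sets 30.4% were at least 2-fold lower there and 2.29% at least 2-fold higher. After loess, and likewise after quantile normalization, 0 KLF genes and 1 probe set were at least 2-fold lower. After loess 8.22% of all genes and 10.1% of all probe sets were as low. After quantile normalization these shares were 7.97% and 9.81%. With no filter 4 of 38 probe sets were at least 2-fold lower, beside 15.0% of all, and with a mean signal of at least 100 it was 1 of 22, beside 10.4%. At or above the 75th percentile of signal 6 of the 10 genes are left. There 6 of 11 probe sets were at least 2-fold higher and 1 lower, beside 7.67% and 9.7% of all. Leaving out probe sets that end in _x_at or _s_at removes KLF4, KLF9, KLF10 and KLF13. Of the 13 probe sets that stay, 5 were at least 2-fold higher, beside 9.2% of all. On that choice 0 genes and 0 probe sets were at least 2-fold lower, beside 10.6% and 11.6%. At 1.5-fold 4 of the 28 probe sets were lower by that much, beside 22.2% of all. At 3-fold 0 genes were lower, beside 2.26% of all. By 3-fold 6 probe sets were higher and 1 lower, beside 2.41% and 3.22% of all. The count of KLF genes past the line in the higher direction ran from 2 to 4 over the 12 alternatives. It was 2 of 10 on the hybridization controls and at 3-fold, beside 2.15% and 2.28% of all measured genes. At the 75th percentile and without probe sets ending in _x_at or _s_at it was 2 of 6, beside 7.57% and 9.07%. By the mean of probe sets it was 4 of 10, beside 7.79%. In the other alternatives it was 3 of 10, beside shares from 7.28% to 21.7%. KLF4 kept a log2 ratio of at least 2.06 and KLF6 one of at least 1.01 in each alternative that gave them a value. KLF11 ran from 0.97 to 1.63 and KLF13 from -1.69 to -0.97. KLF3 passed 2-fold only by the mean of its probe sets, at 1.05. No ratio past 2-fold among the named genes changed sign under these alternatives. The dim probe sets of KLF9, KLF12 and KLF13 limit what can be said of those genes.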

Other observations

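The 2 transcripts that are named after KLF genes and lie beside them had probe sets on the array, all with a mean signal under the filter. The antisense transcript KLF3-AS1 read 65.0 and 3.32 by one probe set and 2.48 and 44.7 by another, and KLF9-DT read 26.7 and 48.9. All of these signals except 65.0 lie under the filter, so no direction is read from them. No probe set carried a KLF member together with another gene.

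The 16 promoter windows of the KLF genes had a median GC content of 67.0%, from 32.7% to 78.3%, beside a median of 58.7% over all promoters in the table. The single KLF9 window was the one at 32.7% and held none of the 5 motifs searched. The only AP-1 match lay in a KLF12 window, and another 2 KLF12 windows held 5 and 3 CACCC boxes.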
